A study of Mus musculus with 18 samples.

Results

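The accessible regions described here are those at the genes of the T cell receptor (TCR) complex and its coreceptors: Cd3e, Cd3d, Cd3g and Cd247, which encode signalling chains, Cd4, Cd8a and Cd8b1, which encode the coreceptors, Lck and Zap70, which encode kinases, and Lat, which encodes an adaptor. A region was taken where the authors' deposited table names one of the 10 genes as overlapping it or lying beside it. This gave 51 regions of 65983, and every one of the 10 genes was named by at least 1. The assay was ATAC-seq, which reads where a transposase could enter the chromatin. The cells were naive mouse CD4 T cells put into culture with anti-CD3/CD28 beads, IL2, IL12 and anti-IL4. Of the 18 samples, 3 each were Id3-KO Th1 and WT Th1 cells at 24 h, Id3-KO Tcmp and WT Tcmp cells at 72 h, and Id3-KO Teff and WT Teff cells at 72 h. The labels spell out neither Tcmp nor Teff. The sources used here do not give how the Id3 knockout was made, the age of the mice, or whether the 3 samples of a group are separate animals. The table holds 1 list of regions for all 18 samples and no value for any sample, so no region below can be given to Id3-KO or to WT cells, or to 1 time, and no value has a replicate error. The samples are bulk, so a region open in many cells and one open in a few cells cannot be told apart.

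The TCR recognises peptide held by an MHC molecule, but its antigen-binding chains have hardly any signalling part of their own. The CD3 chains and the zeta chain (Cd247) carry the tyrosine motifs that Lck phosphorylates, Zap70 docks on those motifs, and Zap70 in turn phosphorylates Lat, on which further signalling proteins assemble. CD4 and CD8 bring Lck to the receptor and bind MHC class II and class I molecules. Each mature conventional T cell keeps one of these coreceptors. In the mouse, a silencer in the first intron of Cd4 shuts that gene off in CD8 lineage cells, and a set of enhancers around the neighbouring Cd8b1 and Cd8a genes drives CD8 expression. Id3 is an inhibitor of E proteins, transcription factors that bind the E box, a short DNA motif.

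Promoter sequences of 5 of these genes are given to show the letters around their annotated starts. They are the windows of RefSeq (build GRCm38.p6, 250 bases before to 50 after the annotated start, 5′ to 3′ on the strand of the gene), a build other than that of the regions, so no region was placed on them. Capitals mark E boxes. The form CAGCTG reads the same on both strands. The form CACCTG, read on the other strand, is CAGGTG, and both were marked. Cd8a (chr6:71373177-71373476, plus strand) is shown because no region carries a promoter, exon or intron label for it. Cd3g (chr9:44980382-44980681, minus strand) and Cd3d (chr9:44981536-44981835, plus strand) are shown because 1 region carries the promoter label of both. Both annotated starts of Lck are shown (upstream chr4:129573592-129573891, downstream chr4:129558323-129558622, minus strand) because regions were listed at exon edges far apart in that gene. Lat (chr7:126369519-126369818, minus strand) is shown because its window does not hold an E box of these forms, and neither does 1 of the 3 windows of Zap70.
Cd8a: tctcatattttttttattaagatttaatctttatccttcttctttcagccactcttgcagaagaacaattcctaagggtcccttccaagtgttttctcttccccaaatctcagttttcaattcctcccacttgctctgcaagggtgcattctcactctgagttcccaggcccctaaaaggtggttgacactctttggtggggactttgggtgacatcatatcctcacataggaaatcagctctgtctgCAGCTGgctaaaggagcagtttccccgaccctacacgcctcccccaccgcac
Cd3g: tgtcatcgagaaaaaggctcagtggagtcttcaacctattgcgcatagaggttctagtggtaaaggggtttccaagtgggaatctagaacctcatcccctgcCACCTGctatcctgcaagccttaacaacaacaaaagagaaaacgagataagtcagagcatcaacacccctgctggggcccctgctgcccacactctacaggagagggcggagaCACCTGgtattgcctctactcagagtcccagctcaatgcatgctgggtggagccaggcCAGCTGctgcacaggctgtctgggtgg
Cd3d: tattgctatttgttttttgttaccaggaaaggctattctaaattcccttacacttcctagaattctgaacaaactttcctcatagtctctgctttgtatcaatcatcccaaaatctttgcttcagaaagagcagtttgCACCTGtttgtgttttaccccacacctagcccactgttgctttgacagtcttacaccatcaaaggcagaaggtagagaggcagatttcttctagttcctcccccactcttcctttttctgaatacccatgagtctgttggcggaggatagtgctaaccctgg
Lck upstream start: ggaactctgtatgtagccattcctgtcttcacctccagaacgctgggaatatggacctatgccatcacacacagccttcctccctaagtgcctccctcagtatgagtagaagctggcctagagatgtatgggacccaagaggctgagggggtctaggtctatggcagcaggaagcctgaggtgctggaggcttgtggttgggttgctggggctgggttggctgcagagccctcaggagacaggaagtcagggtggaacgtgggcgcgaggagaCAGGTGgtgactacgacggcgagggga
Lck downstream start: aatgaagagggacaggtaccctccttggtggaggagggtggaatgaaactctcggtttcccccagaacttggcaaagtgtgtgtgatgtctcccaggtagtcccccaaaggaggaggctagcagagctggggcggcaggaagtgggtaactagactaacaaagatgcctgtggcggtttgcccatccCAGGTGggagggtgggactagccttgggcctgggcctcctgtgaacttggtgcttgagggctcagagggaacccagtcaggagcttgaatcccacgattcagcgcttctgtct
Lat: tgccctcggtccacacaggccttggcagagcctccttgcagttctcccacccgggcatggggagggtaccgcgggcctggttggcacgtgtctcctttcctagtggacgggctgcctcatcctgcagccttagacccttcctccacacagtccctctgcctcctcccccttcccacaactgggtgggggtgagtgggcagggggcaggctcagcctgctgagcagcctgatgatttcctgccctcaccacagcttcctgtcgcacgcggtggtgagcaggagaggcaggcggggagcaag

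The E box of Cd8a has its first base 2 bases upstream of the start, and Cd3g holds 3, at 148 and 35 bases upstream and from base 24 of the transcript. Cd3d has 1 at 112 bases upstream. Lck has 1 from base 24 of the transcript at its upstream start and 1 at 63 bases upstream of its downstream start. RefSeq windows were found for 8 of the 10 genes, 11 windows in all, and none for Cd4 and Cd8b1. An E box of these forms was in 9 of the 11 windows (81.8%) and in 10823 of 32851 windows of all genes (32.9%). With the looser form CANNTG the counts were 11 of 11 windows and 72.3% of all windows. The looser form takes in the 3 others. Motifs of 5 other factor families of T cells, searched on both strands, were each in at most 3 of the 11 windows. None of these contains another in full. The RUNX motif (ACCACA or its reverse complement) was in 3, against 16.8% of all windows. The TCF/LEF motif (CTTTGA or its reverse complement) was also in 3, against 5257 of all 32851. The ETS motif (CCGGAA or its reverse complement) was in 1, against 14.9%, and the GATA motif (AGATAA or its reverse complement) in 1, against 11.2%. The AP-1 motif (TGANTCA) was in 0 of the 11 and in 7.81% of all windows. These counts are a description of letters in RefSeq windows, several of them from the same gene, and no test was made.

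In the table, a region was labelled P, E, PE, PI or I for a gene, for promoter, exon, both, promoter with intron, or intron. Tested on all regions, label P alone reached up to 3000 bp upstream of a gene and up to 923 bp downstream of an exon. Genes beside a region were named up to 5000 bp away. Here a region is counted as promoter where its label holds P, otherwise as exon, intron or, where the gene is only named beside it, flanking. Of the 51 regions, 19 were promoter, 1 exon, 18 intron and 13 flanking for a gene of the panel. These were 37.3% promoter, 1.96% exon, 35.3% intron and 25.5% flanking. Over all pairs of a region and a gene it names, the shares were 37.0% promoter, 7.16% exon, 34.2% intron and 21.7% flanking. The promoter and intron shares of the 51 regions were close to those of all such pairs. With classes taken over any gene, 56.9% of the 51 regions were promoter and 31.4% intron, against 34.7% and 32.7% of all regions. Of all regions, 18.8% named no gene, which by the choice of regions none of the 51 did. The median width was 550 bp, as it was over all regions, and the median number of windows was 6 in both. Windows are the overlapping stretches that the authors merged into regions, and in 97.8% of all regions the width was that of evenly spaced windows at steps of 50 bp. Regions of fewer than 3 windows were 9 of 51 (17.6%), against 5277 of all 65983.

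**Figure D1:**
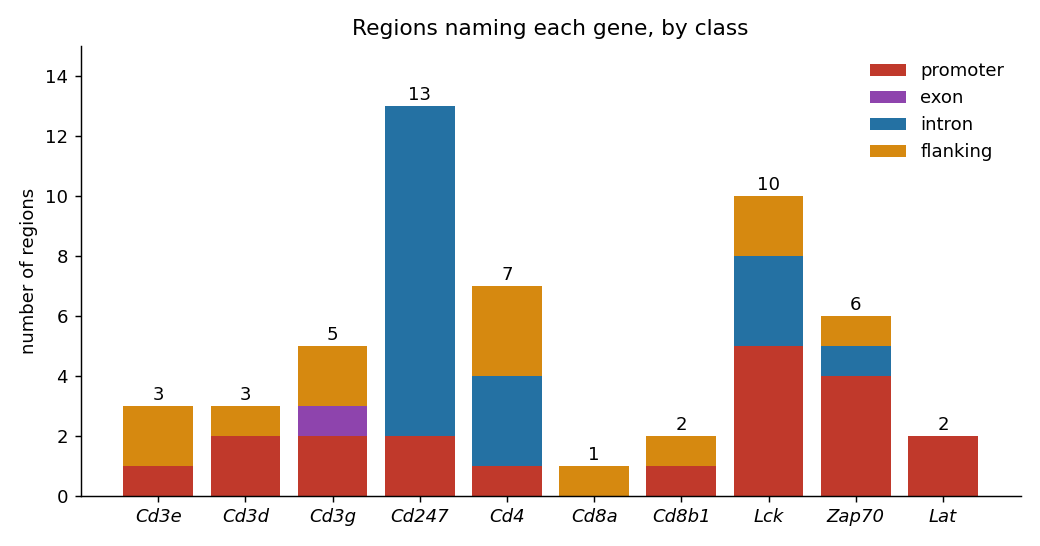
Number of regions (vertical axis) naming each of the 10 genes (horizontal axis), stacked by class. Cd247 has 13, Lck 10 and Cd4 7, whereas Cd8b1 has 2 and Cd8a 1, a flanking region. The region shared by Cd3g and Cd3d is counted under both.

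Cd4, the coreceptor that these cells carry, was named by 7 regions, and Cd8a and Cd8b1, which encode the chains of the other coreceptor, by 3 together. The median gap between the regions naming Cd4 was 3175 bp, while the only gap between those naming Cd8b1 was 18300 bp. Among the 26755 genes named by any region, 7.20% had at least as many as Cd4, 62.6% at least as many as Cd8b1, and Cd8a was at the minimum of 1. That minimum was shared by 10010 named genes (37.4%), and the median was 2, the count of Cd8b1. Counting only regions that overlap the gene or its promoter, Cd4 had 4, Cd8b1 1 and Cd8a 0. By that count 15.6% of named genes had at least as many as Cd4, and 85.5% at least as many as Cd8b1. Named genes that no region overlapped were 3867 of 26755 (14.5%), Cd8a among them. Counts were not scaled to gene length, because no GRCm39 annotation was used here.

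The promoter region of Cd4 lay at chr6:124864901-124865500 (GRCm39), 600 bp wide with 7 windows. The distances that the table prints place the outer 5′ edge of the gene, on the minus strand, at 124865184, inside this region. The other edge of the same exon, at 124865043, was inside it as well. Of the 3 intron regions, chr6:124862051-124862600 began 2584 bp into the gene and had 6 windows. Next came chr6:124860351-124860900, 4284 bp in and also of 6 windows. The third, chr6:124856751-124857250, was 7934 bp in and had 5 windows. All 3 lay between the same exon edges, 124865043 and 124856656, so they shared the first intron, 8386 bp long. This is the intron known to hold the Cd4 silencer, but the files do not mark the silencer and the regions were not matched to it. From its nearest edge at 124856656 to the 3′ end of the gene no region was listed, and the gap between neighbouring regions there was 15450 bp. Regions covered 8.01% of the 23530 bp between the outer edges of Cd4.

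Upstream of Cd4, chr6:124868751-124869350 lay 3567 bp before the outer 5′ edge and had 7 windows. Farther upstream, 2 regions named no gene. The nearer, chr6:124872751-124873150, lay 7567 bp from that edge with 3 windows, and the farther, chr6:124875151-124875750, lay 9967 bp from it with 7 windows. With 2 more that name Lag3, which encodes an inhibitory receptor that binds MHC class II, 5 regions stood between the 5′ edge of Cd4 and the first region overlapping Lag3. The 3′ edge of Lag3 was 16140 bp from the 5′ edge of Cd4. On the 3′ side of Cd4, the regions named for it were at other genes. The region at chr6:124840451-124841300, 355 bp past the 3′ edge, was labelled promoter and exon of Gpr162 and had 10 windows. The region at chr6:124836551-124837200, 4455 bp past it, carried the exon label of Gpr162 and the promoter label of P3h3 and had 8 windows. Thus 5 of the 7 regions lay within Cd4 or on its 5′ side, and the other 2 at neighbouring genes.

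At the Cd8 genes, 1 region carried a promoter label, chr6:71299351-71299900, for Cd8b1. It was 550 bp wide with 6 windows, was labelled promoter and exon of Cd8b1, and also carried the promoter label of Smyd1, a gene on the opposite strand. The table does not tell which of these starts it belongs to. The other region naming Cd8b1, chr6:71318201-71318850, lay 3723 bp past the 3′ edge of the gene with 8 windows, and it carried the promoter label of ENSMUSG00000107855, for which the table gives no symbol. No region was listed over the exons or introns of Cd8b1 past its promoter.

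Cd8a was named by 1 region, chr6:71358701-71359050, which lay 2544 bp past the 3′ edge of the gene. It was 350 bp wide and had 2 windows, fewer than any region naming Cd4, where windows ran from 5 to 10. Before it, no region was listed from 71318851 to 71358700, a stretch of 39850 bp that holds the whole of Cd8a and the 3000 bp upstream of it, since no region carried a promoter, exon or intron label for the gene. Of the 65962 gaps between neighbouring regions of a chromosome, 9087 (13.8%) were at least as long, and the median gap was 8900 bp. On its other side the next region was 51900 bp away, at the neighbouring gene Rmnd5a. The running numbers of windows continued without a break through all 65983 regions in each of the 6 contrasts, so no row is missing from this stretch of the table. The sources used here do not say whether the authors filtered windows on low signal, so a stretch with no listed region is not shown to be closed.

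**Figure D2:**
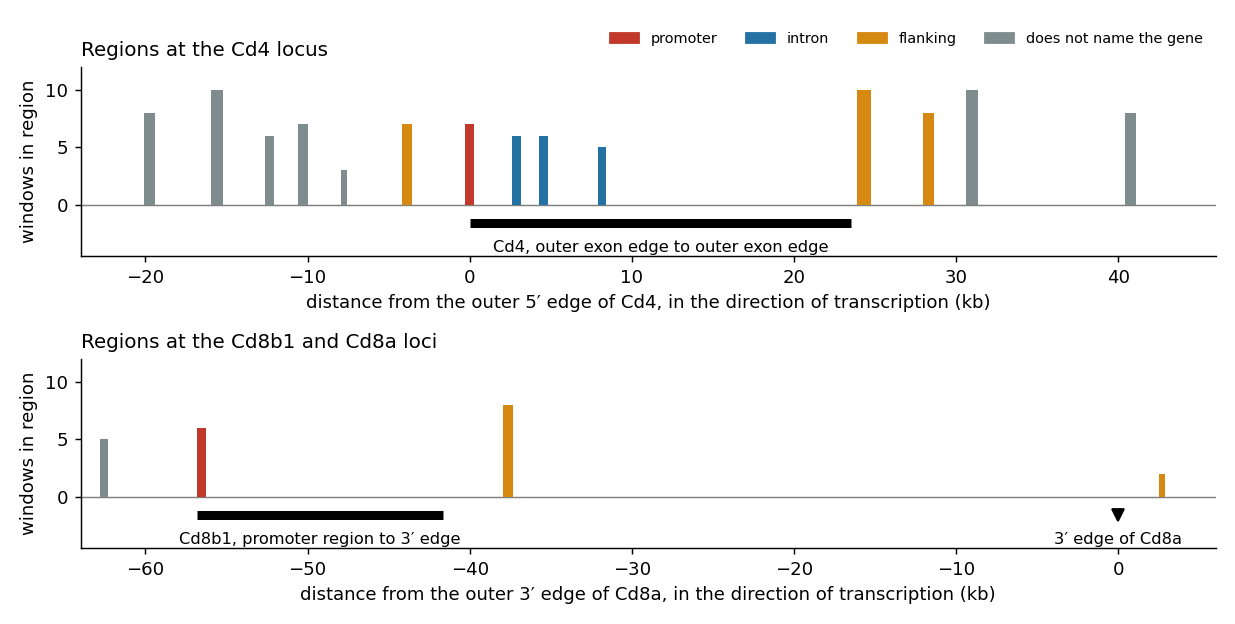
Regions at the Cd4 locus (top) and at the Cd8b1 and Cd8a loci (bottom), on the same scale of 70 kb. The horizontal axes give the distance in kb in the direction of transcription, from the outer 5′ edge of Cd4 or the outer 3′ edge of Cd8a. Bar height is the number of windows. Black lines mark the genes as far as the table gives their edges. Cd4 has a promoter region and 3 intron regions, while a stretch of 39850 bp around Cd8a has none.

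The combined extent of the regions differed in the same direction, but such totals rise with the number of regions. Per region, the median was 600 bp and 7 windows for both Cd4 and Cd8b1. The only region naming Cd8a had 350 bp and 2 windows. The 7 regions naming Cd4 held 49 windows and covered 4300 bp, of which the 4 overlapping ones held 24 windows and 2200 bp. The 3 regions naming Cd8a or Cd8b1 held 16 windows and covered 1550 bp, of which the 1 overlapping region, at Cd8b1, held 6 windows and 550 bp. These are single totals for a list common to all samples, with no test.

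The CD3 genes lie together on chromosome 9, in the order Cd3g, Cd3d, Cd3e, and each had a promoter region. Cd3g encodes the gamma, Cd3d the delta and Cd3e the epsilon chain. The promoter region of Cd3e, chr9:44920401-44921000, was 600 bp wide with 7 windows and was shared with the promoter of ENSMUSG00000111690. Its other 2 regions lay 188 and 1688 bp past the 3′ edge of Cd3e, had 5 windows each, and carried the promoter label of ENSMUSG00000111203. No region carried the intron label alone for any of the 3 CD3 genes.

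Cd3d and Cd3g are transcribed away from each other, and chr9:44891451-44892050 was the only region of the 51 to name 2 genes of the panel. It was labelled promoter and exon for Cd3g and promoter for Cd3d, was 600 bp wide and had 7 windows. The outer 5′ edge of Cd3d, at 44893084, lay 1034 bp beyond it, and no region covered that edge. A second region with a promoter label for Cd3d, chr9:44897651-44898200, lay 4567 bp into the gene, which spans 5554 bp between its outer edges, and had 6 windows. The promoter label is therefore also given around starts of other transcripts of a gene, and the table does not say which. A region with this label need not hold a start. The third region naming Cd3d lay 3314 bp past its 3′ edge and overlapped no gene.

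Cd3g had 5 regions. Beside the region shared with Cd3d, chr9:44884601-44885200 carried a promoter and exon label inside the gene with 7 windows, with other exons 261 and 240 bp on either side. The single exon region of the panel, chr9:44880851-44881150, was 1 window of 300 bp over the 3′ edge of Cd3g. The other 2 regions named Cd3g from 2320 and 3570 bp past that edge and overlapped Ube4a, a neighbour. Of named genes, 14.2% had at least as many regions as Cd3g, and 37.5% at least as many as Cd3e and Cd3d with 3 each. By overlapping regions alone, these shares were 24.8% for Cd3g with 3, 44.3% for Cd3d with 2 and 85.5% for Cd3e with 1.

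Cd247, the gene of the zeta chain, had the highest count of the panel, 13 regions over 73200 bp on chromosome 1, and 1.92% of named genes had at least as many. Of these, 11 were intron regions, and 8 had no exon of the gene within 5000 bp on either side. The intron regions had 1 to 7 windows. The outer 5′ edge of the gene, at 165616250, was in no region. The nearest upstream, chr1:165613201-165613550, lay 2700 bp before it with 2 windows and overlapped 2 other annotated genes. The nearest downstream, chr1:165617401-165617950, began 1151 bp into the gene with 6 windows. The second promoter label, chr1:165685851-165686400, was 69601 bp into the gene, between exons 786 and 388 bp away, with 6 windows. The median gap between regions of Cd247 was 3975 bp and the longest 15000 bp.

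**Figure D3:**
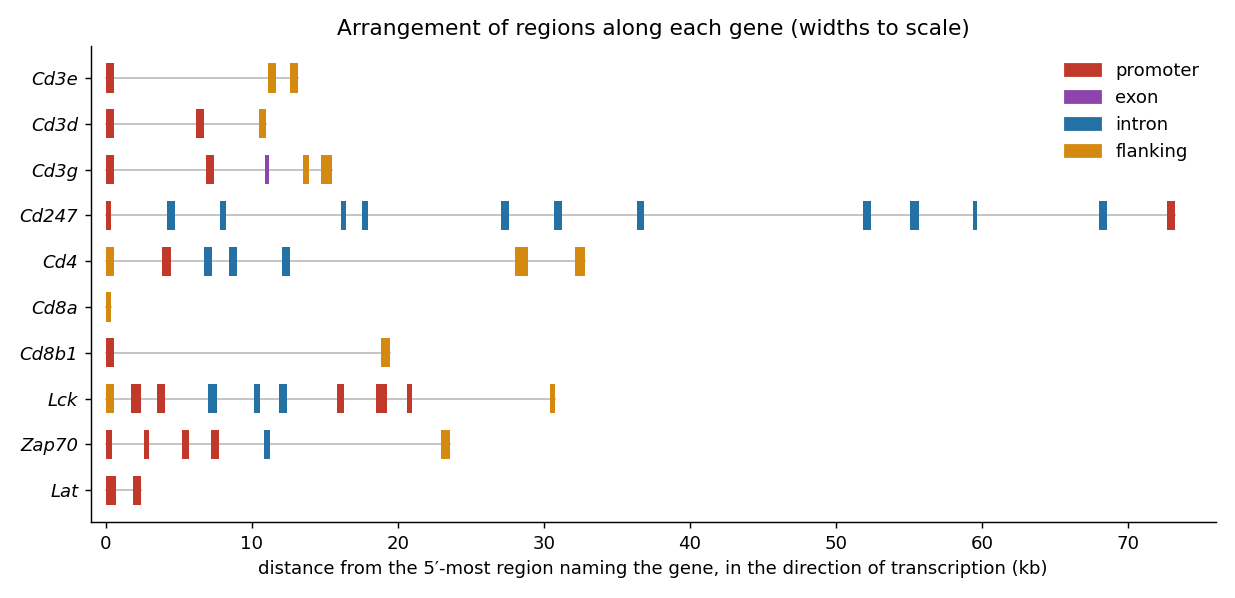
Regions naming each of the 10 genes, drawn to scale from the 5′-most region of each gene (horizontal axis, kb in the direction of transcription) and coloured by class. Intron regions run along Cd247, Lck has promoter regions near both ends of a row of intron regions, and Lat and Cd8a have few.

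Lck, the kinase that phosphorylates the CD3 and zeta chains, had 10 regions over 30750 bp of chromosome 4. It had 5 promoter regions, the most of the panel, and 0.635% of named genes had at least as many. Lck is known to have a distal promoter, used mainly in mature T cells, and a proximal one, used mainly in thymocytes. The outer 5′ edge, at 129467434 on the minus strand, lay inside chr4:129467201-129467800, a promoter and exon region of 7 windows. A promoter region of 8 windows, chr4:129468901-129469550, lay 1467 bp upstream of that edge. An inner exon edge, at 129452184, lay 15250 bp downstream of the outer one, inside chr4:129452001-129452750, which was also labelled promoter and exon and had 10 windows, the most of any region overlapping a gene of the panel. Regions with a promoter label were thus listed at both of these exon edges, and the one at the inner edge also overlapped the gene Mir8119. The remaining promoter regions were chr4:129454951-129455450, of 5 windows, and chr4:129450351-129450650, of 1 window, which overlapped Mir8119 as well.

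Between the 2 exon edges of Lck stood 3 intron regions, of 7, 3 and 8 windows, which began 7984, 6284 and 3134 bp into the gene. Of its 2 flanking regions, chr4:129470701-129471300 overlapped Fam167b 3267 bp upstream and had 7 windows. The other, chr4:129440551-129440850, lay 1287 bp past the 3′ edge and was 1 window. The span of Lck between outer edges was 25298 bp, close to the 23530 bp of Cd4, and 7 regions lay in that span of Lck, against 4 in that of Cd4.

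Zap70, the kinase that docks on the phosphorylated receptor, had 6 regions on chromosome 1, 4 of them with a promoter label, and 1.77% of named genes had at least as many promoter regions. In the direction of transcription, chr1:36800651-36801100 held the end of an exon, at 36801023, with 4 windows. The next, chr1:36803301-36803650, had 2 windows and chr1:36805851-36806350 had 5 windows and held an exon from 36806015 to 36806202. The fourth, chr1:36807901-36808450, had 6 windows. All but the first of these 4 also carried the promoter label of Gm18828, on the opposite strand. The intron region, chr1:36811501-36811900, was 45 bp from an exon with 3 windows. The flanking region, chr1:36823651-36824250, was 1752 bp past the 3′ edge at 36821899, had 7 windows and overlapped no gene.

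Lat, the adaptor that Zap70 phosphorylates, had 2 regions on chromosome 7, both labelled promoter and exon. They were chr7:125968451-125969150, with 9 windows, and chr7:125966751-125967300, with 6 windows, 1150 bp apart. Both also overlapped the promoter of the microRNA gene Mir7058, so the promoter label is shared. Lat had no intron or flanking region.

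**Figure D4:**
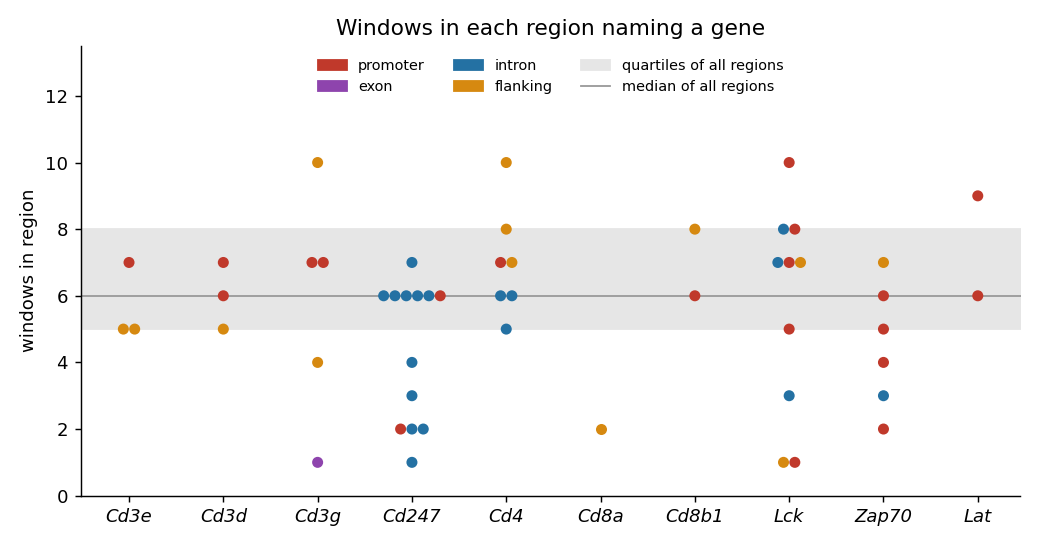
Windows in each region (vertical axis) naming each of the 10 genes (horizontal axis), coloured by class, beside the median and quartiles of all 65983 regions (6, with quartiles 5 and 8). The single region of Cd8a has 2 windows, and the regions of Cd4 have 5 to 10.

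**Figure D5:**
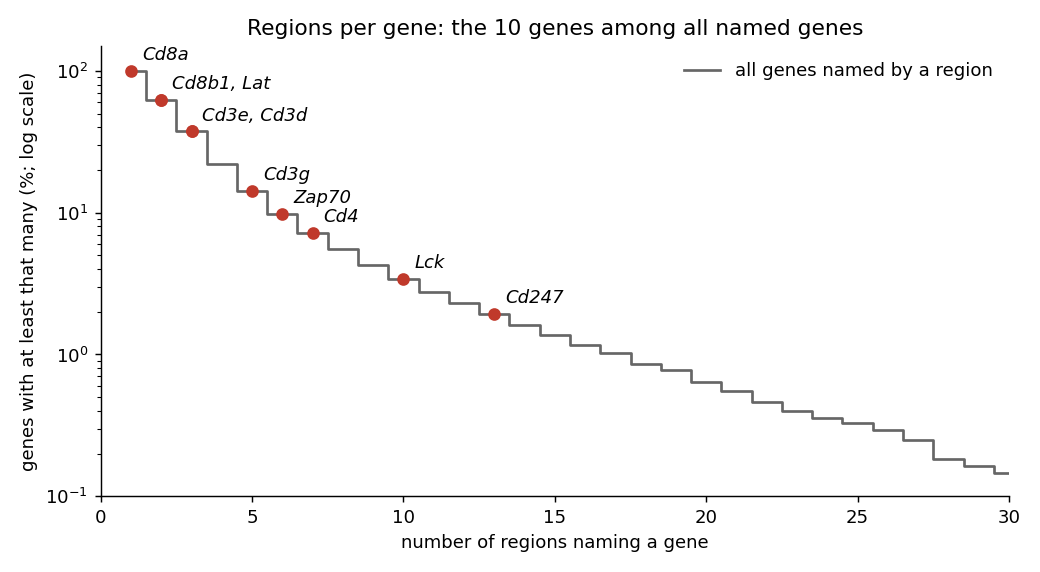
Percentage of the 26755 named genes (vertical axis, log scale) with at least a given number of regions (horizontal axis, shown to 30). Red points mark the 10 genes, from Cd8a with 1 region to Cd247 with 13.

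The panel as a whole was named 52 times, with a median of 4 regions a gene, against 2 over all named genes (quartiles 1 and 3). A longer list of 34 genes of TCR signalling, which holds none of the 10, was named by a region for 34 of 34 genes, and 34 of 34 had a promoter region, against 75.9% of all named genes. Its median was 11 regions a gene, with the most at Fyn, a kinase related to Lck, with 27 regions. The fewest were 3, at Nck1, an adaptor of the cytoskeleton, at Trat1 and Sit1, adaptors of the T cell membrane, and at Cd5, an inhibitory receptor. Gene lengths differ between the lists and were not corrected for.

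Of 10 transcription factors that act on the choice between the coreceptors or in T cell development, 10 were named by a region and 8 had a promoter region, near the 75.9% of all named genes. Runx1, a factor that binds the Cd4 silencer, had 27 regions, and Runx3, its relative in the CD8 lineage, had 11. Zbtb7b, which directs the CD4 lineage, had 6. Myb had the fewest, 2. Patz1 had 3 regions, all of them flanking, and Lef1 had 21, none of them with a promoter label.

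As a check of the cell type, the 4 T cell genes Cd3e, Cd3d, Cd3g and Cd4 all had a promoter region, against 75.9% of all named genes. Of genes of other cell types, Pax5, Itgam, Klrb1c, Klrd1 and Klf1 had 1 promoter region each. Having a promoter region therefore does not set the T cell genes apart from these. Among B cell genes, Cd79a (all flanking) and Pax5 had 4 regions each, and Cd79b and Ms4a1 had none. Of 5 myeloid genes only Itgam was named, with 6 regions, and Csf1r, Lyz2, Cd14 and Adgre1 had none. Of 3 NK cell genes 2 were named (Klrb1c with 2 regions and Klrd1 with 1). Among erythroid genes, Klf1 had 2 regions and Hbb-bs had none. The counts of these genes of other cell types, 0 to 6, take in those of Cd8a and Cd8b1, and also those of Cd3e, Cd3d, Cd3g, Lat and Zap70. Because the list is common to all samples, these counts check no single group.

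The deposited fold changes and p-values were not read as changes at these genes. Among regions with a p below 1, the p-value divided by the number of windows decreased 0 times from the top of the table to its end, in each of the 6 contrasts. The statistics thus follow the order of the table and not the content of its rows. No statement on Id3-KO against WT cells, or on Teff against Tcmp cells, is made for any of the 10 genes.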

How the data were processed

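ATAC-seq was done on 18 samples in 6 groups of 3. The submitters' processing notes name the build GRCm39 and the tools BWA, Trim Galore, edgeR and Picard, without versions, roles or order. The deposited table lists 65983 regions under each of 6 contrasts (395898 rows), with the same regions, labels and distances in 6 of 6 contrasts, so the rows of 1 contrast were used. Per the file headers, the authors gave each region a p-value, an adjusted p-value, a log2 fold change of a representative window and the number of windows; the p-values and fold changes follow the order of the table and were not used. Library depth is unknown, and no interval was computed.

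Members and lists were chosen with earlier results of these data known. All 10 genes are described. Gene edges were computed from region ends and printed distances, which is a step added after the table was seen. Where 2 or more regions gave an edge, they gave the same position in 2898 of 2901 cases. RefSeq promoter windows read 5′ to 3′ on the strand of the gene, as checked on 1843 overlapping pairs on opposite strands, all 1843 of them reverse complements. The region counts were tested on a small made list. Some marker genes are not reported here. No statistical test was made, since the table has no samples and regions are not replicates. Python 3.11.15, pandas 2.3.3, numpy 2.4.6 and matplotlib 3.10.9 were used.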

Additional observations from a re-analysis of the deposited data

How the results depend on the processing

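Without flanking genes, the regions naming Cd4 were 4 and those naming Cd8a or Cd8b1 together 1, while Cd3e had 1 and Cd3g 3. With flanking genes allowed within 2000 bp only, Cd8a and Cd8b1 together again had 1, and Cd8a had 0. With at least 3 windows Cd8a again had 0, the exon class had 0 and the other class counts stayed within 1.5 times. Cd4 had more regions than the Cd8 genes together under each of these settings. Where exon was put before promoter, 5 regions were promoter and 15 exon, because most promoter regions also overlap an exon. Merging regions less than 500 bp apart, and taking the rows of any of the other 5 contrasts, changed no count. Means of width and windows differed from the medians by less than 1 SD of the regions of a gene. The E box form CANNTG is given in the report, and searching promoter windows in place of regions was a choice made after the files were seen. Regions per 10 kb and motifs within regions were not run, since no annotation or genome of GRCm39 was used here. No paired analysis was possible because no column belongs to a single sample, and for that reason no replicate was left out. Depth limits were not judged.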
